A study of Mus musculus with 6 samples.

Results

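Integrins, selectins, their ligands and the adhesion molecules of the immunoglobulin (Ig) family were followed as 1 group of 38 genes in regulatory T cells (Treg) with and without activity of a Blimp-1 reporter. The members were all genes of the 2 deposited count tables whose symbol was on a list of 26 integrin chains (18 alpha, 8 beta), 2 selectins, 2 genes of selectin ligands, the hyaluronan receptor Cd44 and 7 Ig adhesion molecules. All 38 were found among the 26286 genes that both tables hold. The animals were C57BL/6 mice with a Blimp1/GFP reporter, which marks cells that use the Blimp-1 gene Prdm1 with green fluorescent protein. Every sample title carries BlimpHet, so the reporter was shared by both groups, and neither the age nor the sex of the mice is given. CD4+ CD25high cells from spleens and lymph nodes, pooled before the sort, were separated into a GFP+ and a GFP- population, and the submitters describe the 3 samples of each as biologically independent. RNA was sequenced in 6 libraries. In each population 1 library came from poly(A) selection (GFP- 20 and GFP+ 19, numbered as in the titles), and 2 came from an amplification protocol made for single cells but applied to RNA of sorted populations (GFP- 2 and 5, GFP+ 1 and 4).

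Integrins are pairs of an alpha and a beta chain that bind the matrix or Ig family ligands on other cells, and both chains must be present for either to reach the surface. Selectins are lectins that catch rolling leukocytes through sialylated, fucosylated sugars carried by proteins such as PSGL-1. On T cells, gain of CD44 and of integrins such as alpha E is known from effector and tissue-resident cells, whereas alpha M, alpha X and alpha D are best known from macrophages and dendritic cells.

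The libraries held between 15224051 and 28354321 counts. Of genes with at least 20 counts in the poly(A) pair, 635 of 636 on chromosome 3, all 731 on chromosome 8 and all 755 on chromosome 9 stood at 0 in the 4 single-cell protocol columns. This left 8 members (Itga9, Itga10, Itga11, Itgb1, Cd2, Icam1, Vcam1 and Cadm1) with the poly(A) pair alone. Prdm1, the check of the sort, was higher in GFP+ libraries by a log2 fold change of 3.93 ± 0.27 (SE, n = 3 per population). Of 18 T cell and Treg markers, 14 could be tested and 1 of them, Ctla4, was called, as higher in GFP+ Treg. In the poly(A) pair the T cell list summed to 10620 CPM (counts scaled to the size of the library) in GFP- 20 and 11307 CPM in GFP+ 19. It summed to 11015 and 6418 CPM in GFP- 2 and 5 and to 14672 and 11150 CPM in GFP+ 1 and 4. In these 4 libraries 3 of the 18 genes had no counts, so sums are read within a protocol. Cd4 had a log2 fold change of 0.02 and Foxp3 one of 0.21, neither called, and both genes were abundant in all 6 libraries. In bulk RNA a smaller share of cells with a transcript and less transcript per cell cannot be told apart.

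The comparison asked which adhesion genes went with use of the Blimp-1 reporter. Of the 38 members, 23 passed the filter on low counts and were tested with the edgeR quasi-likelihood test, with the protocol as a covariate and Benjamini-Hochberg adjustment over all 10523 tested genes. In GFP+ Treg 10 members were higher and 2 were lower, and 11 did not pass the adjusted threshold of 0.05. Among all tested genes, 13.5% were called, 9.81% as higher and 3.68% as lower. Among the tested members 52.2% were called, 43.5% as higher and 8.70% as lower. The median log2 fold change was 0.73 over the tested members and -0.08 over all tested genes. The calls fell on 5 higher and 1 lower of 11 tested alpha chains, on 2 higher of 6 tested beta chains, on the fucosyltransferase Fut7, on Cd44, and on 1 higher (Alcam) and 1 lower (Pecam1) of 3 tested Ig molecules. Without GFP+ 19 the members called higher numbered 6 of 24 tested, and without GFP- 5 those called lower numbered 4 of 31 tested. The shares of all genes called in these reduced fits were not taken, so a shift in the members cannot be told from a shift in all genes.

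**Figure D1:**
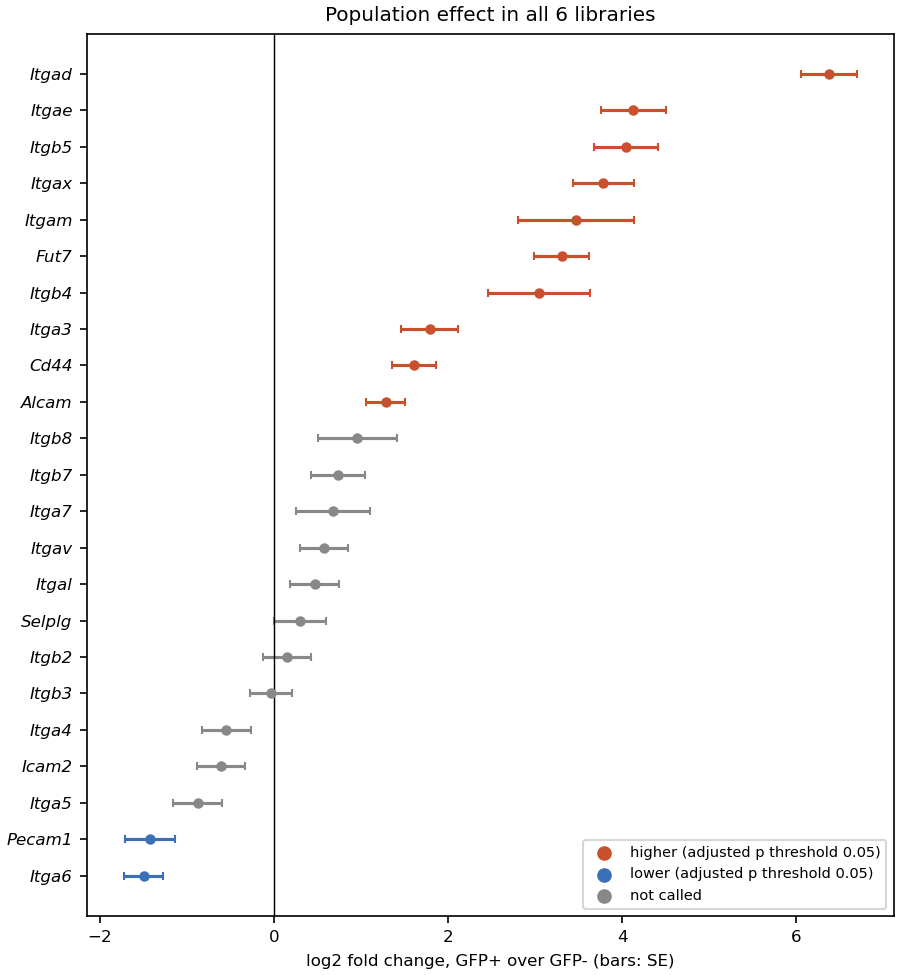
Log2 fold change of GFP+ over GFP- Treg for the 23 tested adhesion genes, with the SE of the edgeR fit to all 6 libraries as bars. Red points were called higher, blue points lower, and grey points did not pass; Itgad lies farthest right at 6.38, and Itga6 farthest left at -1.50.

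Itgae, the alpha E chain (CD103) that pairs with beta 7 and binds E-cadherin on epithelia, had the highest level per length of the 12 called members in GFP+ 19. Scaled by TMM, it stood at 75.9, 32.0 and 46.0 CPM in GFP- 20, 2 and 5, and at 818, 990 and 743 CPM in GFP+ 19, 1 and 4. Every GFP+ library lay above every GFP- library. It was called higher with a log2 fold change of 4.13 ± 0.37 (adjusted p = 0.000226). Per length and within the poly(A) pair, Itgae moved from 28.1 to 310 RPKM (reads per length and library size), from the 11th to the 5th highest level among the 38 members.

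Itgb7, the partner of both alpha E and alpha 4, was the most abundant member in both poly(A) libraries, at 734 RPKM in GFP- 20 and 1171 RPKM in GFP+ 19. Its TMM-scaled level was 1161, 1626 and 2090 CPM in GFP- 20, 2 and 5, and 1806, 3461 and 2902 CPM in GFP+ 19, 1 and 4. Within each protocol GFP+ libraries were the higher ones, but the fold change did not pass (0.73 ± 0.31 on the log2 scale, adjusted p = 0.173); DESeq2 called it with an adjusted p of 0.0454, and limma on the deposited log2 RPKM values with 0.0310. Itga4, the other partner of beta 7 and the chain of the gut and VCAM-1 receptors, had a log2 fold change of -0.55 ± 0.28 (adjusted p = 0.261). Its GFP+ libraries (57.2, 47.4 and 38.1 CPM in 19, 1 and 4) overlapped the single-cell GFP- libraries (73.3 and 39.0 CPM) and lay below GFP- 20 (103 CPM). Without GFP- 5 this fall passed, with an adjusted p of 0.0406.

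The alpha chains that share the beta 2 chain did not move as 1 block. Itgad, the alpha D chain, had the highest fold change of the tested members: 1.09, 0.290 and 0.506 CPM in GFP- 20, 2 and 5 stood against 70.7, 40.2 and 45.0 CPM in GFP+ 19, 1 and 4. Its log2 fold change was 6.38 ± 0.32 (adjusted p = 2.82e-05), and it rose from the 26th to the 11th place per length in the poly(A) pair. Itgax, the alpha X chain CD11c, stood at 0.761, 0.580 and 0.506 CPM in GFP- 20, 2 and 5 and at 12.8, 5.07 and 7.54 CPM in GFP+ 19, 1 and 4. No GFP- library reached any GFP+ library for either gene. The log2 fold change of Itgax was 3.78 ± 0.35 (adjusted p = 0.000241).

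Itgam, the alpha M chain CD11b, was read rarely: 24, 0 and 0 counts in GFP- 20, 2 and 5, and 234, 3 and 13 counts in GFP+ 19, 1 and 4. The poly(A) GFP+ library carried most of these reads, and the groups overlapped across protocols though not within one. The rise of 3.47 ± 0.67 on the log2 scale (adjusted p = 0.00925) did not pass without GFP- 20 (0.0562) or without GFP+ 19 (0.0659). The fitted log2 values were then 6.56 and 6.51, but they set GFP+ 1 and 4 against GFP- libraries at 0 and so depend on the prior count of the fit. Itgal, the alpha L chain of the T cell integrin LFA-1, was abundant in both populations, at 679, 382 and 286 CPM in GFP- 20, 2 and 5 and 823, 571 and 414 CPM in GFP+ 19, 1 and 4. It was higher in GFP+ within each protocol, but its log2 fold change of 0.47 ± 0.28 did not pass (adjusted p = 0.335). Itgb2, the shared beta chain, had a log2 fold change of 0.15 ± 0.27 (adjusted p = 0.777), with overlapping populations at 639 to 981 CPM in GFP- and 642 to 1154 CPM in GFP+ libraries.

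Macrophage markers moved with these genes. All 22 tested markers of a macrophage list of 25 measured genes were higher in GFP+ Treg, with a median log2 fold change of 5.46. The list summed to between 64.9 and 154 CPM in GFP- and between 1634 and 2473 CPM in GFP+ libraries. Among its genes of the highest mean CPM, Csf1r, the receptor of a macrophage growth factor, had a log2 fold change of 6.32, the complement chain C1qc 6.51, and the receptor kinase Axl 2.69. Clec4f, a marker of liver macrophages, was at 0 in every library. The part of such markers in the rise of Itgad, Itgax and Itgam was not tested. Of the dendritic cell list 2 of 12 genes could be tested and neither passed: Batf3 had a log2 fold change of 1.22 (adjusted p = 0.0935) and Siglech one of -0.76 (adjusted p = 0.337). Bst2 and Zbtb46, higher in mean CPM than these, could not be tested. Of the granulocyte list, Ly6g alone was tested, with a log2 fold change of 1.32 that did not pass (adjusted p = 0.0899); its next genes by mean CPM, Csf3r and Ngp, could not be tested.

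**Figure D2:**
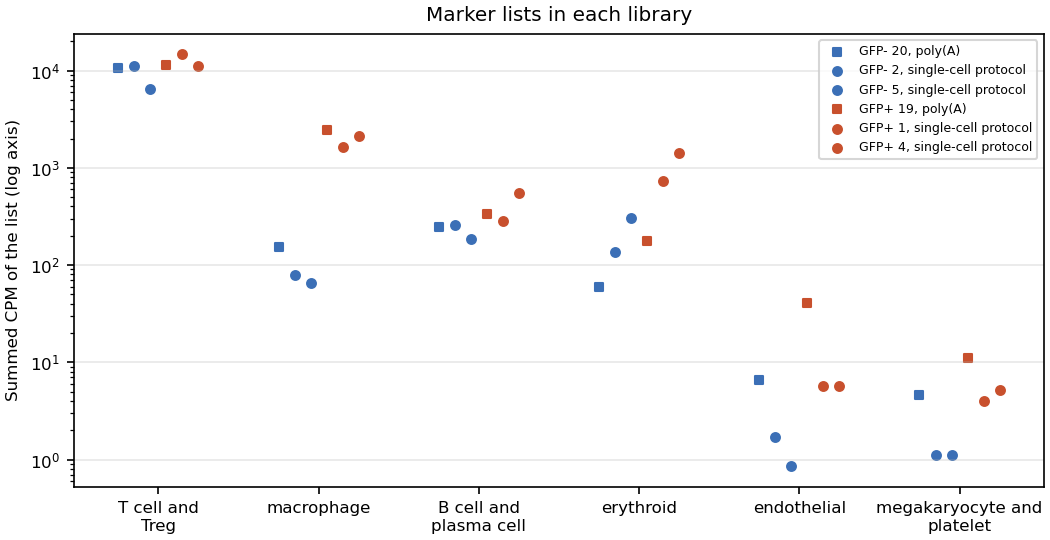
Summed CPM (all counts of a library, log axis) of 6 marker lists in each library, squares for poly(A) and circles for single-cell protocol libraries, blue for GFP- and red for GFP+. The macrophage list lies between 64.9 and 154 CPM in GFP- and between 1634 and 2473 CPM in GFP+ libraries, while the T cell and Treg list is at 6418 CPM or above in all.

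Itgam, Itgax and Itgad follow one another on mouse chromosome 7 in the RefSeq order of assembly GRCm38, and all 3 were higher in GFP+ Treg. Itgal lies apart from them on the same chromosome, before them in this order, and was not called. The measured gene before Itgam that could be tested, Pycard, an adaptor of the inflammasome, had a log2 fold change of 1.02 ± 0.39 (adjusted p = 0.135). Sele and Selp lie close together on chromosome 1, and both had lower levels in GFP+ than in GFP- libraries. Mettl18 beside Sele had a log2 fold change of -0.57 (adjusted p = 0.176).

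Of the 38 members, 24 had at least 1 promoter window (250 bases before to 50 after the start, RefSeq, GRCm38.p6), 27 windows in all. The letters GAAAG, the core of the motif known for Blimp-1, or their complement CTTTC stood in 18 of 27 member windows and in 57.3% of all 32851 windows. GAGGAA or TTCCTC, the core of the motif known for the myeloid factor PU.1, stood in 13 of 27 member windows and in 28.3% of all. Itgad, which follows Itgax on the chromosome and changed most, had no window. Windows of genes that lie close together are shown because each pair shares its direction, Sele and Selp lower and Itgam and Itgax higher in GFP+ Treg. All 4 lie on the plus strand, capitals mark these letters on either strand, and no match overlaps another. Their places are chr1:164047984-164048283 for Sele, chr1:164115014-164115313 for Selp, chr7:128062390-128062689 for Itgam and chr7:128129300-128129599 for Itgax.
Sele: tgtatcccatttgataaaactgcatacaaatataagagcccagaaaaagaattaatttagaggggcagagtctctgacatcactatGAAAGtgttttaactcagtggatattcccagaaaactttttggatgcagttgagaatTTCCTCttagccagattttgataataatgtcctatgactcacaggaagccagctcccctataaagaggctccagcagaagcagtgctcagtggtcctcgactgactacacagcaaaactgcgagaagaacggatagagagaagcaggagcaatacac
Selp: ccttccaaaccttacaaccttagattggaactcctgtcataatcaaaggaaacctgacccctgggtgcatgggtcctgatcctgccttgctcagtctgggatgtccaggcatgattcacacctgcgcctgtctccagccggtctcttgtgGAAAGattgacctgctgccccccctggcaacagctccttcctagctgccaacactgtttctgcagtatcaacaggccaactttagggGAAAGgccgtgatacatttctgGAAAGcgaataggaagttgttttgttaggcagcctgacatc
Itgam: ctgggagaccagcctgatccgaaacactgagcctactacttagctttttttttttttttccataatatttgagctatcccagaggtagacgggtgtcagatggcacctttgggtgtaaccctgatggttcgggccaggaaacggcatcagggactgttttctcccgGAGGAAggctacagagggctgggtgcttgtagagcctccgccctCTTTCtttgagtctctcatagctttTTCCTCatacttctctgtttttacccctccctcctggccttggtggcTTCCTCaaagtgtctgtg
Itgax: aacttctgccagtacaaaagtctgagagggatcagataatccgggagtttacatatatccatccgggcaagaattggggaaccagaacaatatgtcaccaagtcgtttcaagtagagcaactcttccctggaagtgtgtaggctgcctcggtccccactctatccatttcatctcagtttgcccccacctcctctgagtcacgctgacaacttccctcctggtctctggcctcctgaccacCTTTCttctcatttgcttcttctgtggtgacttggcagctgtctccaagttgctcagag
Selp held GAAAG 3 times and GAGGAA not at all. Sele held each motif 1 time. Itgam held GAGGAA or its complement 3 times and CTTTC 1 time, while Itgax held CTTTC 1 time only. A match of these letters is a description of the window and shows no binding.

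P-selectin and E-selectin, the products of Selp and Sele, are known from platelets and endothelium, and both transcripts were rare here. Selp had 96, 43 and 7 counts in GFP- 20, 2 and 5 and 3, 0 and 0 counts in GFP+ 19, 1 and 4. Sele had 26, 4 and 6 counts in the GFP- libraries and 3, 0 and 0 in the GFP+ libraries, in the same order. Each GFP- library exceeded each GFP+ library for both genes, and a count of 0 allows up to 0.171 CPM in GFP+ 1 and 0.170 CPM in GFP+ 4. Within the poly(A) pair, Selp in GFP+ 19 was 0.0300 times its level in GFP- 20 (95% exact counting interval 0.00608 to 0.0903), and Sele 0.111 times (0.0215 to 0.361). Both failed the filter on low counts. In a fit with no such filter, in which 7.93% of all genes were called higher and 3.86% lower, edgeR called 15 members higher and 4 lower. Among the 15 were Itga9, Vcam1 and Cadm1, which have counts in the poly(A) pair alone and so 1 informative library per population. The unfiltered fit called both selectins lower, with log2 fold changes of -5.66 ± 0.69 for Selp and -3.72 ± 0.96 for Sele (adjusted p = 2.39e-14 and 0.00164). Its adjusted p-values cannot be set beside those of the main fit. Itgad, with a log2 fold change of 6.37 ± 0.38 in the unfiltered fit, had an edgeR adjusted p of 4.88e-60 there against 2.82e-05 in the main fit.

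Of the lists of platelet and endothelial markers only 3 genes were tested, and edgeR called none lower and 2 higher. Pecam1, a member that both cell types also express, was lower. The part of such cells in the lower levels of Selp and Sele was not tested. Macrophage markers rose as well, and their part in the 2 higher calls was not tested. Of the megakaryocyte and platelet list, Clec1b alone was tested and was higher in GFP+ Treg (log2 fold change 4.91 ± 0.48, adjusted p = 0.000321). The list summed to between 1.10 and 4.59 CPM in GFP- and between 3.99 and 11.1 CPM in GFP+ libraries, and Gp1ba and Vwf, next to Clec1b by mean CPM, were not tested. Pf4, platelet factor 4, had 0, 1 and 0 counts in GFP- 20, 2 and 5 and 1, 1 and 3 in GFP+ 19, 1 and 4. Of the endothelial list, Stab2 was higher by 3.82 ± 0.52 (adjusted p = 0.00172), and Eng had a log2 fold change of 0.71 that did not pass. Cdh5, the cadherin of endothelium, had 5 and 23 counts in the poly(A) pair and 0 in the other 4 libraries, and Flt4 could not be tested.

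**Figure D3:**
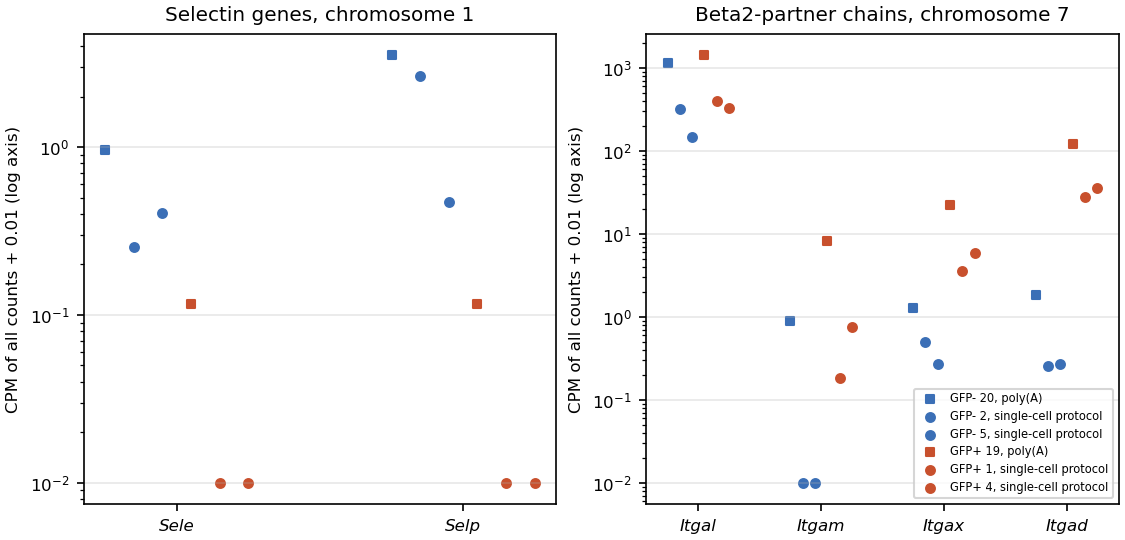
CPM (all counts of a library, with 0.01 added, log axis) of the selectin genes Sele and Selp of chromosome 1 and of the alpha chains of chromosome 7 that pair with beta 2. Squares are poly(A) and circles single-cell protocol libraries; both selectin genes lie lower in GFP+ (red) than in GFP- (blue) libraries, and Itgam, Itgax and Itgad lie higher in GFP+ within each protocol.

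Among genes that make selectin ligands, Fut7 was higher. Fut7, the fucosyltransferase that completes the sialyl Lewis x sugar bound by selectins, stood at 4.02, 2.54 and 5.32 CPM in GFP- 20, 2 and 5 and at 30.8, 41.0 and 46.3 CPM in GFP+ 19, 1 and 4. The lowest GFP+ library was well above the highest GFP- library. Its log2 fold change was 3.30 ± 0.32 (adjusted p = 0.000313). Selplg, which encodes the carrier protein PSGL-1, was abundant in both populations, at 339 CPM in GFP- 20 and 457 CPM in GFP+ 19, and at 1465 and 2049 CPM in GFP- 2 and 5 against 2205 and 1914 CPM in GFP+ 1 and 4. The populations overlapped, and the log2 fold change of 0.30 ± 0.30 did not pass (adjusted p = 0.576).

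Of 26 further genes of selectin ligand synthesis and carriers, 16 were tested, and 2 were higher and 1 lower, with a median log2 fold change of 0.34. Over all tested genes, 9.81% were higher and 3.68% lower. Gcnt1, the branching enzyme of core 2 sugars on which this ligand is built, was higher by 3.28 ± 0.29 (adjusted p = 0.000219). Its TMM-scaled level was 3.48, 2.17 and 2.66 CPM in GFP- 20, 2 and 5 and 25.9, 21.8 and 33.0 CPM in GFP+ 19, 1 and 4, with no overlap. Fut8, which adds the core fucose of N-linked sugars and is not an enzyme of the sialyl Lewis x sugar, was higher by 1.09 (adjusted p = 0.0160). Chst2, a sulfotransferase of selectin ligands on chromosome 3, had 2458 counts in GFP- 20 and 7812 in GFP+ 19, a log2 ratio of 1.60 in the pair, with no test.

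Cd44, the hyaluronan receptor that also marks antigen-experienced T cells, stood at 75.8, 80.1 and 100 CPM in GFP- 20, 2 and 5 and at 183, 291 and 326 CPM in GFP+ 19, 1 and 4. All GFP+ libraries were above all GFP- libraries. The log2 fold change was 1.61 ± 0.25 (adjusted p = 0.00340).

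Among tested chains of matrix receptors, Itgb5, the beta chain that joins alpha V in a vitronectin receptor, changed most. It stood at 2.48, 0.580 and 1.90 CPM in GFP- 20, 2 and 5 and at 38.9, 19.1 and 20.2 CPM in GFP+ 19, 1 and 4, with no overlap. Its log2 fold change was 4.05 ± 0.37 (adjusted p = 0.000231). Its partner Itgav had a log2 fold change of 0.57 ± 0.28 (adjusted p = 0.231), and GFP+ 1 at 8.92 CPM lay below GFP- 2 at 9.71 CPM. Of the other beta chains of alpha V, Itgb8, known in Treg for activating latent TGF-beta, had a log2 fold change of 0.96 ± 0.45 (adjusted p = 0.219), and Itgb3 one of -0.04 ± 0.24 (adjusted p = 0.942). Macrophage markers rose with Itgb5 as well, and their part in its rise was not tested.

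The laminin receptor chains split by direction. Itga6 was at 100, 48.1 and 34.2 CPM in GFP- 20, 2 and 5 and at 36.2, 14.9 and 13.9 CPM in GFP+ 19, 1 and 4. It was lower in GFP+ within each protocol, although GFP+ 19 exceeded GFP- 5. The log2 fold change was -1.50 ± 0.22 (adjusted p = 0.00270), and its place per length in the poly(A) pair went from the 9th to the 17th. Itgb4, which pairs with alpha 6 alone, was rare and went up, from 18, 0 and 1 counts in GFP- 20, 2 and 5 to 143, 11 and 6 counts in GFP+ 19, 1 and 4.

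Itgb4 had a log2 fold change of 3.04 ± 0.59 (adjusted p = 0.00951), which did not pass without GFP- 20 (0.113), without GFP+ 19 (0.121) or on the deposited log2 RPKM values (0.140). Itga3, another laminin receptor chain, was at 6.39, 0.652 and 1.52 CPM in GFP- 20, 2 and 5 and at 19.6, 3.84 and 3.99 CPM in GFP+ 19, 1 and 4. It was higher within each protocol, with a log2 fold change of 1.79 ± 0.33 (adjusted p = 0.00712, and 0.0657 without GFP+ 19). Itga7, also of this class, had a log2 fold change of 0.67 ± 0.43 (adjusted p = 0.360), and GFP+ 1 lay below both GFP- libraries of its protocol.

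Itga5, the alpha chain of the classical fibronectin receptor, was lower in GFP+ within each protocol, but its log2 fold change of -0.88 ± 0.28 did not pass (adjusted p = 0.0778). It was called with DESeq2 (0.0417) and on the deposited log2 RPKM values (0.0489). The collagen receptor chains Itga1 and Itga2 failed the filter on low counts. Itga1 had 5, 0 and 0 counts in GFP- 20, 2 and 5 and 58, 6 and 0 in GFP+ 19, 1 and 4, and Itga2 25, 1 and 0 against 332, 4 and 1. Most of their reads came from the poly(A) GFP+ library. Within the pair, Itga2 was 12.7 times higher in GFP+ 19 (8.49 to 19.99) and Itga1 11.1 times higher (4.51 to 35.6). The fit with no filter called both higher, with log2 fold changes of 3.42 ± 0.64 and 3.55 ± 0.91 (adjusted p = 2.91e-06 and 0.00148). As for the selectins, these adjusted p-values cannot be set beside those of the main fit.

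**Figure D4:**
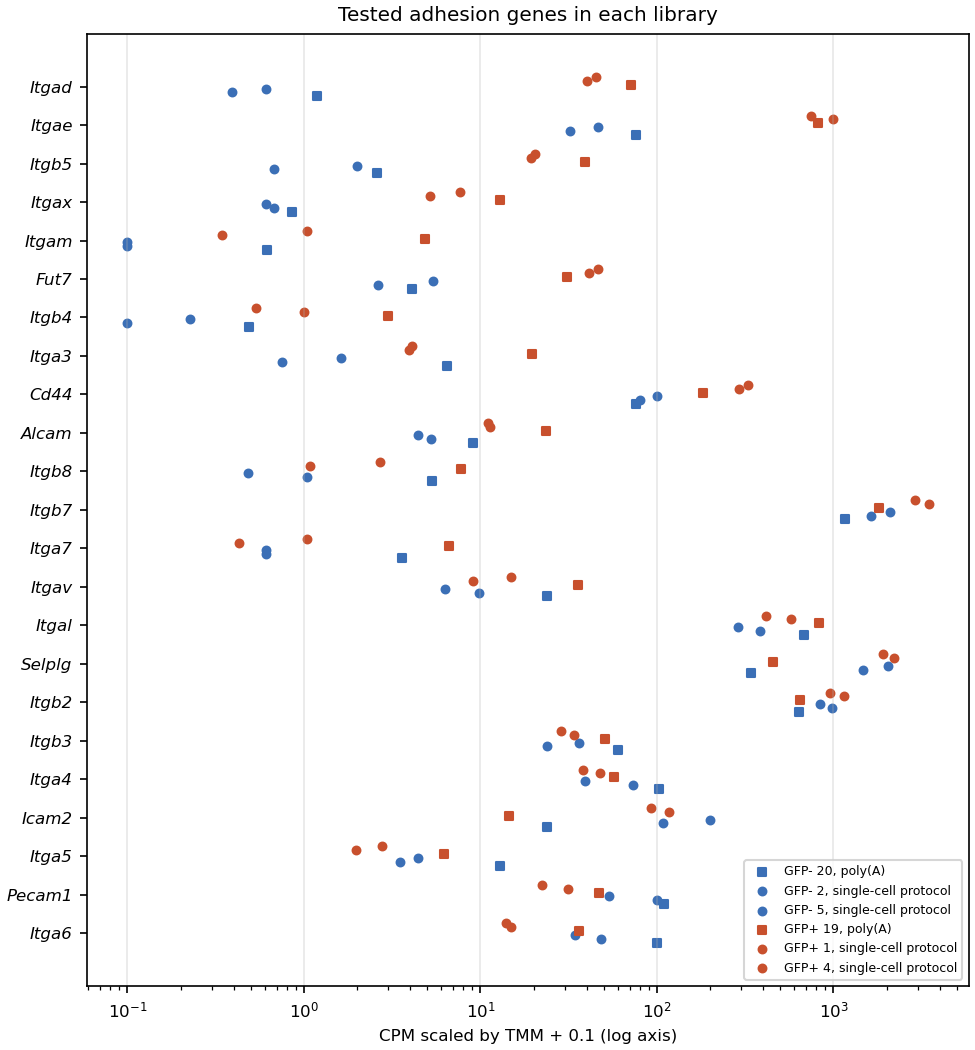
TMM-scaled CPM (0.1 added, log axis) of the 23 tested adhesion genes in each library, ordered by log2 fold change. Squares are poly(A) and circles single-cell protocol libraries. Blue and red points lie apart for Itgad, Itgae, Itgb5, Itgax, Fut7, Itgb4, Cd44 and Alcam at the top and for Pecam1 near the bottom. They mix for Itgb2, Itgb3 and Selplg. In CPM of all counts, Itgb4, Alcam and Pecam1 overlap across protocols.

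Of the 23 tested members, 13 were higher and 3 lower in every GFP+ library than in every GFP- library of the same protocol, and 7 overlapped. Over all tested genes these shares were 21.3% and 19.3%. On TMM-scaled CPM and without regard to protocol, Itgad, Itgae, Itgax, Itgb4, Itgb5, Fut7, Cd44 and Alcam lay wholly higher and Pecam1 wholly lower. The share of all tested genes that did so was not taken, so these members have no background to be read against. In CPM of all counts, Itgb4, Alcam and Pecam1 overlapped across protocols. A term for a difference of the population effect between protocols was called for 0 of 10523 genes by edgeR, with 24 genes and no member at an unadjusted p under 0.05. With 1 poly(A) library per population, this lack of calls cannot show that the protocols agree. Itgam, with a term of 3.68 on the log2 scale, had an unadjusted edgeR p of 0.192. In the single-cell protocol libraries alone, 6 members were called higher (Itgad, Itgae, Itgax, Itgb5, Fut7 and Cd44) against 5.54% of all genes, and Itga6 was called lower against 1.41% (6.95% in either direction).

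Of the Ig adhesion molecules, Pecam1, which binds to itself between endothelial cells, platelets and leukocytes, was lower. Scaled by TMM, it stood at 110, 100 and 53.7 CPM in GFP- 20, 2 and 5 and at 46.7, 31.3 and 22.3 CPM in GFP+ 19, 1 and 4. No libraries overlapped on this scale, but in CPM of all counts GFP+ 19 at 80.9 lay above GFP- 5 at 27.9. The log2 fold change was -1.42 ± 0.29 (adjusted p = 0.0125), with 0.0603 without GFP+ 1 and 0.0545 without GFP+ 4. Alcam, the ligand of CD6, was at 8.997, 5.14 and 4.30 CPM in GFP- 20, 2 and 5 and at 23.4, 11.3 and 10.95 CPM in GFP+ 19, 1 and 4. The populations did not overlap after TMM scaling. In CPM of all counts, GFP- 20 at 15.2 lay above GFP+ 1 and 4 at 7.87 and 8.58. The log2 fold change was 1.28 ± 0.23 (adjusted p = 0.00610), with 0.108 without GFP- 20 and 0.118 without GFP+ 19. Icam2, a ligand of LFA-1, had a log2 fold change of -0.61 ± 0.28 (adjusted p = 0.201, and 0.0417 without GFP- 2), and GFP+ 1 lay above GFP- 2.

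For the Ig molecules and integrin chains on chromosomes 3, 8 and 9 only GFP- 20 and GFP+ 19 could be compared, with no replicate check, and the intervals cover counting error alone. Vcam1, the endothelial and macrophage ligand of alpha 4 integrins, had 95 counts in GFP- 20 and 5367 in GFP+ 19, a level 54.2 times higher (95% exact counting interval 44.3 to 67.2). It moved from the 24th to the 10th place per length, at 55.7 RPKM in GFP+ 19. Cadm1, a homophilic molecule that also binds CRTAM, had 14 and 697 counts, a ratio of 47.8 (28.3 to 87.9). Itga9, a chain that binds VCAM-1 among others, had 153 and 1157 counts, a ratio of 7.26 (6.13 to 8.65). These 3 genes rose in the library in which macrophage markers summed to 2473 CPM against 154 CPM, and the part of those markers was not tested.

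Icam1, the main ligand of LFA-1, was higher by a smaller factor, with 3598 and 9035 counts and a ratio of 2.41 (2.32 to 2.51). Ratios near 1 were found for Itgb1 and Cd2. Itgb1, the beta chain shared by most matrix receptors, had a ratio of 1.30 (1.26 to 1.35), and Cd2, the T cell receptor for CD48, one of 1.08 (1.06 to 1.11). Itga10, a collagen receptor chain, was lower, with 51 and 16 counts (ratio 0.301, 0.160 to 0.537), and Itga11, another, had 3 and 17. Itga2b, the platelet alpha chain, had 28, 8 and 1 counts in GFP- 20, 2 and 5 and 21, 2 and 0 in GFP+ 19, 1 and 4, and its interval in the pair, 0.389 to 1.31, spanned 1. Itga8 had 3 counts in GFP- 20 and 1 in GFP+ 19, Itgb6 1 count in GFP+ 19, and neither had any other.

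**Figure D5:**
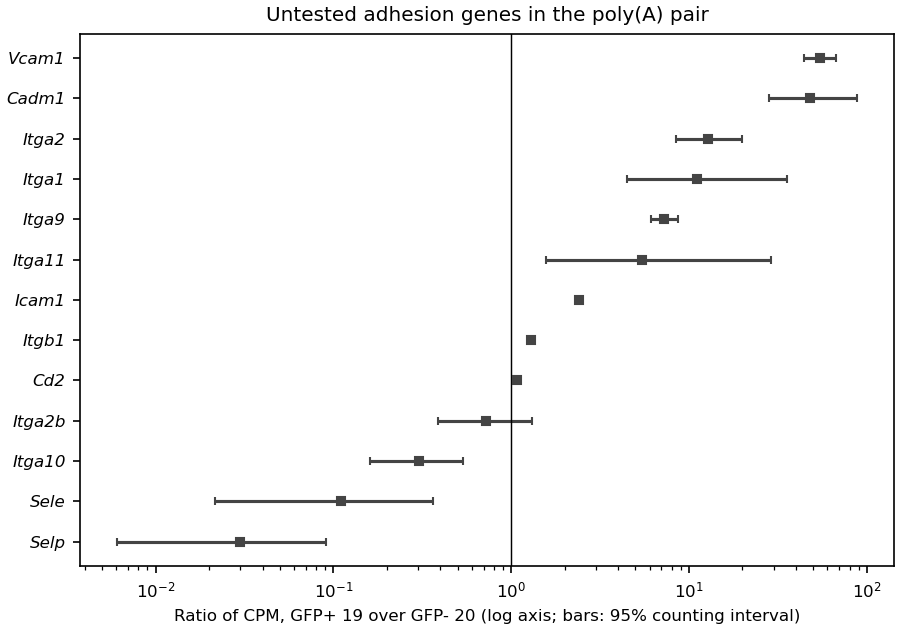
Ratio of CPM (log axis) in GFP+ 19 over GFP- 20 for the 13 untested adhesion genes with at least 20 counts in the pair, with 95% exact counting intervals as bars and a line at 1. Vcam1 and Cadm1 lie farthest right at 54.2 and 47.8, and Selp farthest left at 0.0300; there is 1 library per population and no replicate check.

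In all, 36 members had at least 20 counts in the pair. With 0.5 CPM added to each level, 16 were at least 2-fold higher in GFP+ 19 and 6 at least 2-fold lower, against 10.7% and 4.22% of all genes so compared. The median log2 ratio was 0.76 over these members and -0.05 over all. The highest levels per length in GFP- 20 were those of Itgb7 (734 RPKM), Cd2 (385), Itgb2 (377), Itgal (295) and Selplg (220). In GFP+ 19 the first 4 kept their order, at 1171, 418, 389 and 366 RPKM, and Itgae came next at 310 RPKM. Neighbours such as Cd2 and Itgb2 are ordered here from 1 library of each population, with no spread to set beside the difference.

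Other genes of integrin adhesion were read beside the members. Of 36 tested genes of integrin activation and adhesion complexes, 5 were higher and 4 lower, with a median log2 fold change of -0.08. Among the higher ones were Lyn (3.01) and Fgr (1.93), Src family kinases of myeloid integrin signalling, with adjusted p of 0.000372 and 0.00103. Actn1, an actin crosslinker at adhesion sites, was lower (-1.66, adjusted p = 0.00358), and Tns3, a tensin that binds beta chain tails, higher (2.62, adjusted p = 0.00570). The core activators Tln1 (0.25), Fermt3 (-0.08) and Rap1b (0.16) did not pass, at adjusted p of 0.679, 0.869 and 0.743. Lyn and Fgr moved with the macrophage markers, whose part in this was not tested.

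Of 25 tested partners and further adhesion genes, 5 were higher and 4 lower, with a median of 0.60. Those with the smallest p were Cd9, a tetraspanin that associates with integrins (-2.53, adjusted p = 0.000470), Lamc1, a laminin chain (2.13, 0.000622), F11r, a junctional molecule and ligand of LFA-1 (3.54, 0.00105), Epcam, an epithelial adhesion molecule (1.75, 0.00273), and Col1a1, a collagen chain (2.61, 0.00278). Col1a1 was also the sole tested gene of the stromal list, in which Thy1, a T cell gene in mice, had the highest mean CPM and Pdgfrb was not tested. Over the 3 lists, 12 of 77 tested genes were higher and 9 lower, against 9.81% and 3.68% of all tested genes. Without GFP- 5 the counts were 19 and 11 of 94 tested. The lower genes numbered 4 of 78 without GFP- 20 and 3 of 94 without GFP+ 1. They numbered 4 of 77 without GFP+ 19 and 5 of 93 without GFP+ 4. For these fits the share of all genes called was not taken.

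Of 10 tested B cell and plasma cell markers, 1 was higher (Sdc1, 1.95, adjusted p = 0.0399); Xbp1, Cd79b and Igj, those of the highest mean CPM, did not pass. Of 5 tested CD8 and natural killer markers, Cd8a and Ncr1 were lower, and Cd8b1 and Klrb1c did not pass. Of 4 tested erythroid markers, the near-identical Hba-a1 and Hba-a2 were higher by 1.83 and 1.87, and Hbb-b1 did not pass. The erythroid list summed to 59.4, 137 and 308 CPM in GFP- 20, 2 and 5 and to 178, 728 and 1418 CPM in GFP+ 19, 1 and 4, higher in GFP+ within each protocol, and its part in the members' changes was not tested. The strand used in counting is not stated, and 18 of 38 members overlap another RefSeq gene, among them the called Itgad (with Cox6a2), Itgae (with Haspin), Itgb4 (with Galk1), Cd44 and Alcam, so reads there may be shared. Cox6a2 itself had 41 counts in GFP+ 19 and at most 3 in any other library.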

How the data were processed

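RNA of sorted Treg was sequenced in 6 libraries, 3 per population. The authors deposited raw counts per Entrez gene in 2 tables, one per protocol, and log2 RPKM values per library, which served only as an alternative. The submitters' processing notes name Subread, featureCounts, edgeR and mm9, with no role or version. Per the file headers, the tables also give gene lengths, another quantity used here for RPKM. Of the lengths in the single-cell protocol counts, 30.9% are exactly 3000 bases, so levels per length are given for the poly(A) pair only. Sorted log2 RPKM values differed by a median of 0.00335 between libraries.

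Counts were analysed in R 4.3.3 with edgeR 4.0.16 (filterByExpr by population, TMM, quasi-likelihood F-test, protocol as covariate, 3 residual degrees of freedom) and Benjamini-Hochberg adjustment over 10523 genes at 0.05. TMM factors were 2.02 and 2.06 for the poly(A) and 0.519 to 0.846 for the other libraries. SEs derive from the F statistic, and adjusted p-values with no named test are edgeR's. Single libraries were compared by CPM ratio with exact counting intervals, for genes with 20 or more counts. The fit was tested on simulated data. Alternatives used limma 3.58.1 and DESeq2 1.42.0. The closest pair of libraries had a chi-square of 88.9 per degree of freedom, so none was a duplicate. The p-values reflect the variation among samples said to be biologically independent. Since the poly(A) libraries have no replicate, this spread also holds any difference of the population effect between protocols. The members, the lists and the naming rule (every member; up to 5 called genes of the smallest p per pathway list; the 3 most abundant genes per marker list and Csf1r, Foxp3, Cd4, Pf4 and Cdh5; Prdm1; a few list genes are not reported here) were chosen with earlier results of these data known. Neighbouring genes, Cox6a2 and genes that complete a count were named after their values were seen. Since mm9 sequences were not used, promoter windows are RefSeq's on GRCm38.p6.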

Additional observations from a re-analysis of the deposited data

How the results depend on the processing

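Over 16 alternatives (14 for Itgam and Itgb4, which failed a stricter filter and the filter in the single-cell protocol libraries alone), no called member changed direction, and Itgad, Itgae, Itgax and Fut7 (4 of 12 called members) passed in each. With no protocol covariate 4 members were higher and 0 lower (pathway lists 4 and 0). In the single-cell protocol libraries alone 6 were higher and 1 lower, and the pathway lists had 4 lower. With no filter 15 of 38 members were higher and 4 lower, and 22 of 120 pathway genes were higher. The 15 include Itga9, Vcam1 and Cadm1, which have counts in the poly(A) pair alone. Leaving out 1 library gave 6 to 13 members higher and 2 to 4 lower of 23 to 31 tested. The pathway lists then had 10 to 19 genes higher and 3 to 11 lower of 77 to 94 tested. With DESeq2 11 members were higher and 3 lower, with limma-voom, RLE factors or TMM within each protocol 10 and 2, on deposited log2 RPKM values 10 and 3, and with 1 CPM in 3 libraries 8 and 2. Fewer samples entered some of these fits, and the number of genes tested differed between them. Without GFP- 2, GFP- 5, GFP+ 1 or GFP+ 4, 30 or 31 members passed the filter, against 23 with all libraries. The filter asks for counts in as many libraries as the smaller population holds, so leaving out a library relaxes it. Where both poly(A) libraries stayed, it can admit members with counts in that pair alone, which have 1 informative library per population. The cause of the shifts in calls was not tested. Itgb3, not called anywhere, changed sign, to 0.0015 with limma-voom, 0.051 in the single-cell protocol libraries alone, and 0.06 without GFP- 20, 0.11 without GFP- 5, 0.06 without GFP+ 19 and 0.01 without GFP+ 4 (-0.24 to 0.11 over the 6 libraries left out in turn). Itga3 did not pass in the single-cell protocol libraries alone (adjusted p = 0.0677), nor did Pecam1 (0.0502) or Alcam (0.114). Poly(A) pair counts were 16 and 5 with TMM factors of the pair.

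The titles share no replicate numbers between populations. With consecutive title numbers as a replicate block, 10 members were higher and 3 lower, Itga5 being added (adjusted p = 0.0133), and the pathway lists had 22 higher and 12 lower. The 8 members on chromosomes 3, 8 and 9 have no replicate, and with 3 libraries per population rare transcripts such as Itgam, Itgb4, Selp and Sele rest on few reads.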
